A study of Homo sapiens with 12 samples.

Results

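The MCM genes encode the replicative helicase and proteins of the same name that act beside it. Their transcripts were followed in SK-mel147, an established human melanoma line, after hairpins against the 2 genes of the histone variant H2A.Z. A named set of 8 genes was taken, MCM2 to MCM8 and MCM10, out of 18417 genes measured. Each of the 8 was read by 1 probe set that carries its symbol alone, so no choice between probe sets arose. Per the treatment protocol, all 12 arrays carried RNA of cells infected with lentiviral short hairpins, the controls included. The sample titles speak of siRNA instead, and the protocol was followed here. The 4 control arrays had a scrambled hairpin (2 arrays) or a luciferase hairpin (2 arrays). H2AZ2, the gene of H2A.Z.2, was targeted by sh_37 and by sh_38 (2 arrays each), and H2AZ1, the gene of H2A.Z.1, by sh_83 and by sh_84 (2 arrays each). The labels give no time after infection, no clone and no separate cultures, so a p-value reflects only how far arrays of a hairpin or target differ, which can be technical. The labels of replicate 2 of sh_84 disagree on the hairpin, its title giving one and the RNAi entry another. The title was followed, and these are called the arrays labelled sh_84.

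Before S phase the origin recognition complex, CDC6 and CDT1 load MCM2 to MCM7 onto DNA as a closed ring made of 1 copy of each subunit. The ring stays inactive until CDC45 and the GINS complex join it and MCM10 helps to start unwinding. MCM genes are classic targets of the E2F factors, and their products are widely used as markers of cells that are able to divide. MCM8 pairs with MCM9 in a separate complex that works in homologous recombination.

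Expression is given as log2 values of each probe set, so a difference of -1 is a halving. Because probe sets bind with different strength, levels are compared between arrays and not between genes. The targeted transcripts were read first. H2AZ2 was lower by -1.12 with sh_37 (SE 0.08, limma adjusted p = 1.13e-05), at 46.1% of the controls, and by -0.61 with sh_38 (SE 0.08, limma adjusted p = 0.00204), at 65.4%. In the same 4 arrays H2AZ1 read 11.97 to 12.11, against 12.12 to 12.38 in the controls. Its H2AZ2 arrays thus lay wholly below the controls, as 7.46% of all genes did. H2AZ1 was lower by -2.38 with sh_83 (SE 0.09, limma adjusted p = 1.31e-06), at 19.3%. In the arrays labelled sh_84, H2AZ1 stood at 92.0% of the controls (limma adjusted p = 0.859), so the label of these 2 arrays is not borne out by their target. Of the melanocyte markers, SOX10 (10.62 ± 0.12, SD, n = 4 controls), MITF (8.29 ± 0.02) and RAB27A (8.65 ± 0.09) lay above the median gene (7.69). The pigment genes TYR (4.84), TYRP1 (4.76), MLANA (5.09) and PMEL (5.72) lay below it. So did S100B (5.44), S100A1 (5.96), GPNMB (6.31) and MC1R (7.34). Of the markers of other cell types, CD68 (11.45), LUM (8.81), KRT14 (8.31) and COL1A1 (7.77) also lay above the median gene. Such a placing compares different probe sets and is only rough. In the comparison by target, none of the 11 measured melanocyte markers passed the test with H2AZ2 hairpins, the largest differences being 0.95 for GPNMB (limma adjusted p = 0.240) and -0.23 for RAB27A (limma adjusted p = 0.186). Markers of keratinocytes (6 measured), fibroblasts (8), endothelium (6) and leukocytes (6) gave no call in that comparison either. Calls by single hairpin are given with the hairpins. The mean log2 level of the fibroblast list ran from 6.18 to 6.39 in the controls and from 6.42 to 6.62 in the H2AZ2 arrays, and its part in the results below was not tested.

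The 6 ring genes lie on 6 chromosomes (GRCh38.p14). MCM2 (probe set 8082350) spans chr3:127598411-127622436 and MCM3 (8127031) chr6:52264015-52284742. MCM4 was read by probe set 8146357. MCM5 (8072687) spans chr22:35400140-35455031, MCM6 (8055426) chr2:135839626-135876443, and MCM7 (8141395) chr7:100092728-100101397. The other two are MCM8 (8060813) at chr20:5950652-5998977 and MCM10 (7926259) at chr10:13161558-13211110.

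Promoter letters are shown because the members moved together in the arrays described next. Windows of 300 bases, 250 before and 50 after each annotated start (RefSeq, GRCh38.p14), were read for 6 of the 8 genes, MCM2, MCM3, MCM6, MCM7, MCM8 and MCM10, in 8 windows, since MCM7 has 3 starts. They were searched on both strands for 4 words of E2F type, TTTCGCGC, TTTGGCGC, TTTCCCGC and TTTGCCGC, which can overlap each other, and for CCAAT, the box bound by NF-Y. Of the 8 stretches with a match, 6 are shown, the blocks of overlapping words and the match nearest the start of each other gene, as 30 bases on the gene's strand with the matched E2F letters in capitals.
MCM6, chr2:135876575-135876604: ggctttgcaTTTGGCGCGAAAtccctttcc
MCM6, chr2:135876513-135876542: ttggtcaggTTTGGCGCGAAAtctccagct
MCM2, chr3:127598404-127598433: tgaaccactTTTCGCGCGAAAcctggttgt
MCM3, chr6:52284728-52284757: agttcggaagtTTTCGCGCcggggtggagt
MCM7, chr7:100101388-100101417: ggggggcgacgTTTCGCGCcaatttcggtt
MCM8, chr20:5950667-5950696: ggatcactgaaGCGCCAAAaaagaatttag
In MCM6 and MCM2 words of both strands overlap in 1 block. Counted from the start, the MCM2 block lies at 3 to 14, the MCM6 blocks at -152 to -141 and -90 to -79, and the MCM8 word at 27 to 34. The MCM3 word spans the start, from -4 to 4, and the MCM7 word lies at -9 to -2. The matches not shown were TTTCCCGC at -174 to -167 of MCM3 and, on the other strand, at -187 to -180 of MCM7. An E2F word was found in 5 of the 8 windows, against 3.31% of the 35116 windows of all genes, and in 5 of the 6 genes, against 3.99% of 27305 genes. CCAAT was found in 7 of the 8 windows, against 34.6% of all windows, and in 5 of the 6 genes, against 39.7% of all genes. MCM10 held no E2F word of these 4 in its window, and MCM2 no CCAAT. These matches are letters in a window and were not measured as binding.

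With H2AZ2 hairpins all 6 ring genes fell. MCM10 fell as well, and MCM8 did not pass the test. The falls ran from -0.73 for MCM6 (60.4% of control) to -0.39 for MCM3 (76.4%), with n = 4 arrays against 4. Of the 8 MCM genes 7 were called lower at an adjusted p under 0.05, where 2.44% of all genes tested were called lower. The arrays of 7 MCM genes lay wholly below the controls, which was so for 7.46% of all genes. Across all genes the median difference was 0.03, and across the 8 MCM genes it was -0.51. RNA came from whole cultures, so fewer cycling cells and less MCM RNA per cell cannot be told apart.

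MCM2 binds histones H3 and H4 through its tail and forms the gate of the ring with MCM5. Its control arrays read 10.44 and 10.33 (scrambled) and 10.27 and 10.36 (luciferase), against 9.64 and 9.70 with sh_37 and 9.95 and 9.97 with sh_38. The groups did not overlap, and sh_37 lay below sh_38. The difference was -0.54 (SE 0.09, limma adjusted p = 0.0105), or 69.0% of control.

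MCM5, the other side of the gate, read 10.38, 10.29, 10.31 and 10.24 in the controls in the same order. It read 9.77 and 9.70 with sh_37 and 9.91 and 9.87 with sh_38. All 4 H2AZ2 arrays were low, and the difference was -0.49 (SE 0.08, limma adjusted p = 0.00703), or 71.3% of control.

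MCM3, the subunit that docks onto the loader, read 10.22 and 10.22 with the scrambled hairpin and 10.05 and 10.14 with luciferase. With sh_37 it read 9.73 and 9.77, and with sh_38 9.81 and 9.77. Its 4 H2AZ2 arrays lay close together (SD 0.03) and below every control. The difference of -0.39 (SE 0.08, limma adjusted p = 0.0177) left 76.4% of control.

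MCM4, whose tail is phosphorylated by the CDC7 kinase when the helicase fires, read 10.01, 10.08, 9.86 and 10.11 in the controls. With sh_37 it read 9.24 and 9.29, and with sh_38 9.57 and 9.45. Both hairpins were low, sh_37 more so. Its difference was -0.63 (SE 0.09, limma adjusted p = 0.00546), or 64.7% of control.

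MCM6, which binds the loading factor CDT1, read 9.49, 9.69, 9.44 and 9.76 in the controls. It read 8.82 and 8.75 with sh_37, and 9.08 and 8.80 with sh_38. Replicate 2 of sh_38 lay at the level of sh_37, and no H2AZ2 array reached a control. Its difference of -0.73 (SE 0.12, limma adjusted p = 0.00651) was the largest of the 8 genes.

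MCM7, which forms the catalytic core of the ring with MCM4 and MCM6, read 11.25, 11.12, 10.85 and 11.11 in the controls. With sh_37 it read 10.59 and 10.69, and with sh_38 10.68 and 10.67. Replicate 1 of luciferase was the lowest control and still lay above the H2AZ2 arrays. The difference was -0.43 (SE 0.10, limma adjusted p = 0.0400), or 74.3% of control. This call was lost when any of 6 arrays was left out, namely scrambled replicate 1, luciferase replicate 2 or any H2AZ2 array, with adjusted p from 0.0629 to 0.186 in those 6 fits.

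MCM10 is no subunit of the ring and joins it at activation. It read 10.06, 9.81, 9.70 and 9.88 in the controls, 9.17 and 9.24 with sh_37, and 9.21 and 9.07 with sh_38. The hairpins overlapped each other here, and both lay far below the controls. The difference was -0.69 (SE 0.11, limma adjusted p = 0.00555), or 62.0% of control.

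MCM8, the helicase of recombination, read 11.05, 10.96, 10.78 and 10.98 in the controls. With sh_37 it read 10.53 and 10.50, and with sh_38 10.82 and 10.72. The sh_38 arrays overlapped the luciferase arrays. Its difference of -0.30 (SE 0.10) did not pass the test (limma adjusted p = 0.134).

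The count of called genes leaned on the controls. Without scrambled replicate 1 it dropped from 7 to 3 (MCM4, MCM6 and MCM10), and without either control hairpin, which leaves 2 control arrays, to 0. The differences themselves held their sign in all 25 alternative settings, and over all genes those 3 fits called 66, 43 (scrambled left out) and 14 (luciferase left out) genes instead of 609.

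**Figure D1:**
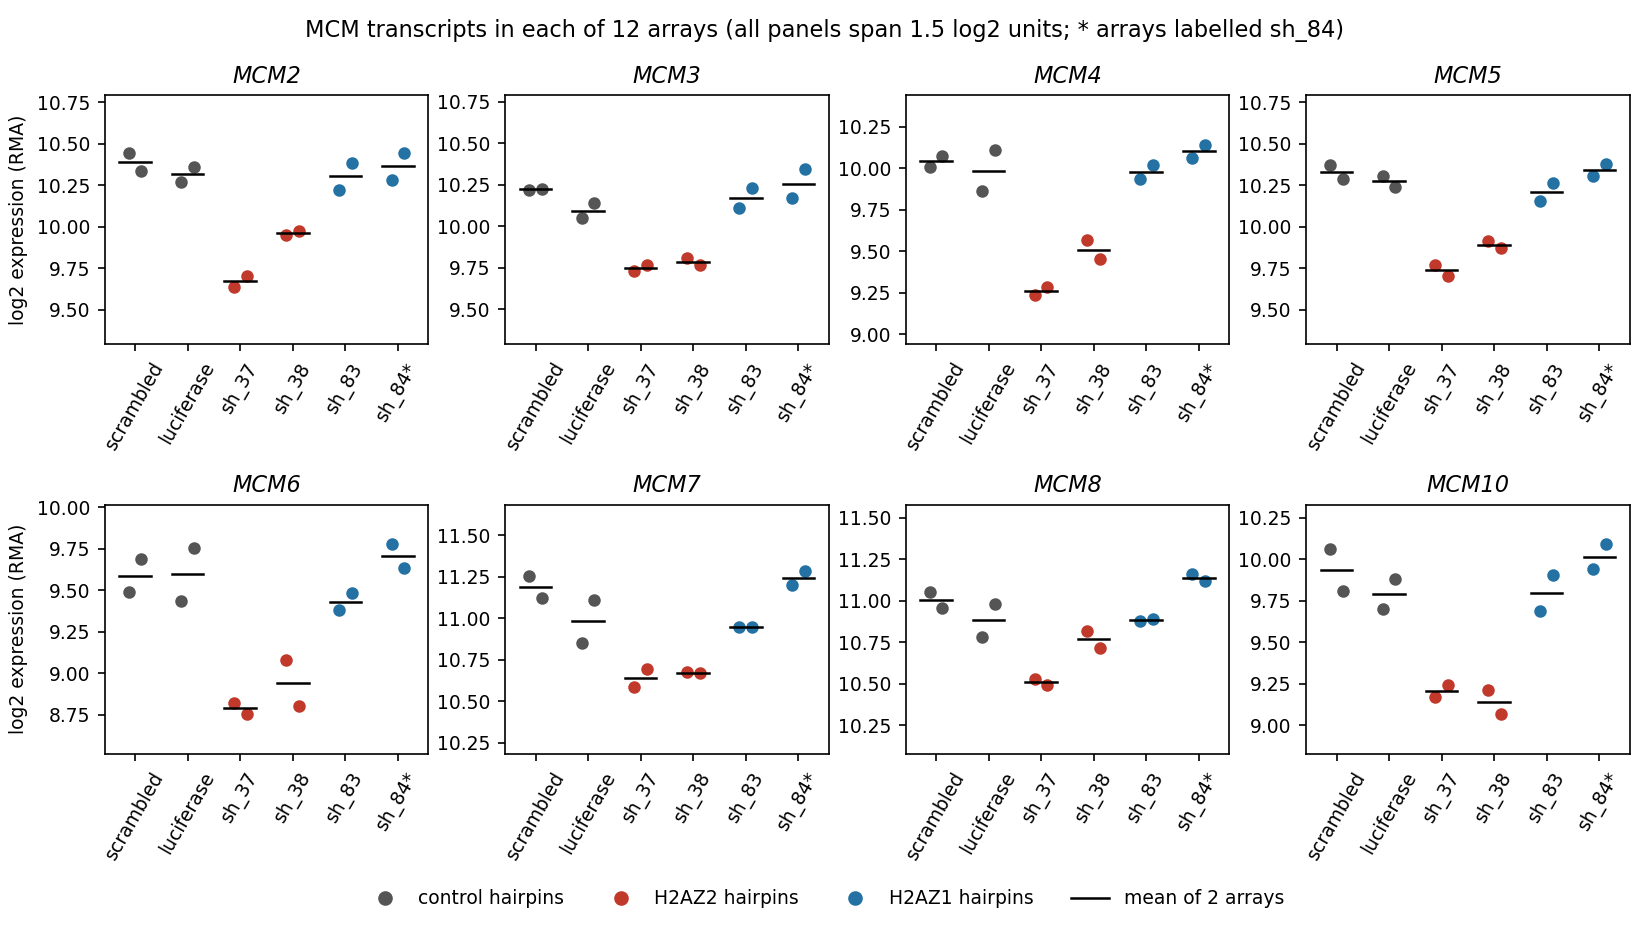
Log2 expression of the 8 MCM genes (vertical axis, 1.5 log2 units in every panel) in each of the 12 arrays, grouped by hairpin along the horizontal axis, with points for arrays and a bar for the mean of 2. In 7 panels the 4 red points of the H2AZ2 hairpins lie below every grey control point, and in the MCM8 panel the sh_38 points overlap the controls.

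Taken by hairpin, each hairpin being a group of 2 arrays, all 8 MCM genes were called lower with sh_37 and 7 with sh_38. With sh_37 the differences from the 4 controls ran from -0.80 (MCM6, 57.3% of control) to -0.41 (MCM3, 75.3%). MCM8 was among those called (-0.43, SE 0.08, limma adjusted p = 0.00512). The background was 7.19% of genes called lower and 17.2% with arrays wholly below the controls, and all 8 MCM genes met both. With sh_38 the differences ran from -0.72 (MCM10, 60.6%) to -0.18 (MCM8, 88.5%, limma adjusted p = 0.253), the background being 3.33% called lower and 12.8% wholly below. MCM8 was the only MCM gene that did not pass with sh_38, and the only one whose sh_38 arrays overlapped the controls. These counts rest on pairs of arrays. Without sh_37 replicate 1 the sh_37 count was 5, with MCM3, MCM7 and MCM8 lost, and without sh_37 replicate 2 MCM3 and MCM8 were lost. For sh_38 the count was 0 without its replicate 2. It was 4 without its replicate 1, without scrambled replicate 1 or without luciferase replicate 2, and MCM2, MCM3 and MCM7 were the genes lost in each of these 3 fits. MCM7 alone was also lost without either sh_83 array, which enters through the shared spread.

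Marker genes of other cell types were called in the same fit by hairpin. With sh_37, 2 of the 8 fibroblast markers were higher, LUM (1.27, SE 0.09, limma adjusted p = 1.18e-05) and COL1A1 (0.69, SE 0.12, limma adjusted p = 0.00401), and 2 of the 6 leukocyte markers were lower, LYZ (-0.82, limma adjusted p = 0.00476) and CD68 (-0.58, limma adjusted p = 0.00152). Of the 11 melanocyte markers GPNMB was higher (1.54, limma adjusted p = 9.17e-05) and SOX10 lower (-0.30, just under the threshold). Over all genes 7.19% were called lower with sh_37. The shares called higher with sh_37, sh_38 and sh_83 are not given here, so the higher markers have no background beside them. With sh_38 LUM was called (0.38, limma adjusted p = 0.0374) and no other marker of these lists. LUM, GPNMB, CD68 and LYZ also differed between sh_37 and sh_38, by 0.89, 1.17, -0.86 and -0.68. GPNMB was called with sh_83 as well (1.13, limma adjusted p = 0.00693), where no MCM gene was, and LUM was lower in the arrays labelled sh_84 (-0.85, limma adjusted p = 0.00396). No keratinocyte or endothelial marker was called with any hairpin against the controls. These marker genes were named after their values were seen, and their part in the MCM results was not tested.

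Because H2AZ2 itself was lower with sh_37 than with sh_38 by -0.50 (SE 0.09, limma adjusted p = 0.00763), the hairpins were set against each other. Of the 8 MCM genes none passed, where 2.2% of all genes were called lower and 4.07% higher. At an unadjusted p under 0.05 there were 3, all lower with sh_37. These were MCM2 (-0.29, SE 0.10, limma adjusted p = 0.123), MCM8 (-0.26, SE 0.09, limma adjusted p = 0.163) and MCM4 (-0.25, SE 0.10, limma adjusted p = 0.226). For MCM3 and MCM7 the hairpins differed by -0.04 and -0.03, well inside their SE of 0.09 and 0.10. MCM10 was the single member with the opposite sign (0.07, SE 0.12). In the order of hairpin means sh_37 was lowest for 7 genes and sh_38 for MCM10. Neighbours in that order, sh_37 and sh_38, were thus not told apart for any member.

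**Figure D2:**
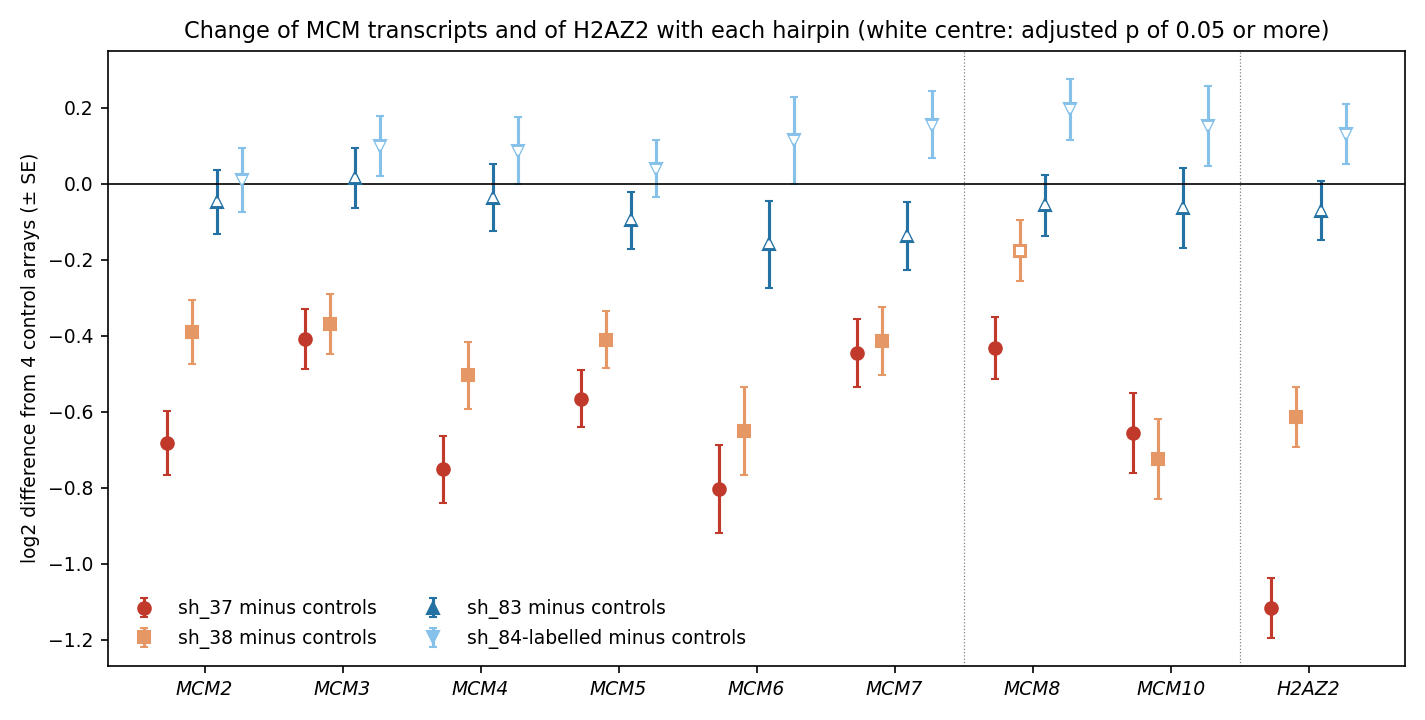
Log2 difference of each hairpin from the mean of the 4 control arrays (vertical axis, points with SE from the fit by hairpin) for the 8 MCM genes and H2AZ2, where a white centre marks an adjusted p of 0.05 or more. The sh_37 and sh_38 points lie between -0.80 and -0.18 for the MCM genes, and the sh_83 and sh_84-labelled points between -0.16 and 0.20.

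With H2AZ1 hairpins no MCM gene changed detectably. In the fit by target, differences ran from -0.03 (MCM5) to 0.07 (MCM8), and the limma adjusted p was 1.00 for every member. None of the 8 genes reached an unadjusted p of 0.05, the smallest being 0.470 for MCM3. No gene of the array was called in this comparison (0% lower and 0% higher), and H2AZ1 itself was not, since its level differed so much between sh_83 and the arrays labelled sh_84. The sh_83 arrays, in which the target did fall, are therefore the ones that bear on H2AZ1.

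In the sh_83 arrays MCM6 read 9.38 and 9.48, MCM7 10.95 and 10.95, and MCM5 10.15 and 10.26, each overlapping the controls. MCM2 read 10.22 and 10.39, MCM3 10.11 and 10.23, and MCM4 9.93 and 10.02. MCM8 read 10.88 and 10.89 and MCM10 9.69 and 9.91. All 8 genes overlapped the controls, with 7 of the 8 differences below 0. They ran from -0.16 (MCM6, SE 0.11, limma adjusted p = 0.682) to 0.01 (MCM3, SE 0.08). None was called and none had an unadjusted p under 0.05, against 0.489% of all genes called lower and 10.9% with arrays wholly below. An SE of 0.07 to 0.11 leaves room for small changes, so a p above the threshold does not show that MCM levels were the same.

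In the arrays labelled sh_84 all 8 differences were above 0, from 0.01 (MCM2) to 0.20 (MCM8, SE 0.08). MCM8 read 11.16 and 11.12, above every control, with an unadjusted p of 0.0337 and a limma adjusted p of 0.509. It was the only member with an unadjusted p under 0.05, and none was called, against 0.342% of all genes called lower and 0.0109% called higher. MCM2 read 10.28 and 10.44, MCM6 9.78 and 9.64, and MCM7 11.20 and 11.28, each overlapping the controls. The difference between the control hairpins is a measure of what hairpins without a target do here. Scrambled minus luciferase ran from -0.01 (MCM6) to 0.21 (MCM7, SE 0.10, limma adjusted p = 0.672) with no member called and none under an unadjusted p of 0.05.

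Between the H2AZ1 hairpins the sh_83 arrays had the lower mean for all 8 MCM genes, where 0.472% of all genes were called lower. The differences ran from -0.29 (MCM7, SE 0.10, limma adjusted p = 0.259) to -0.06 (MCM2, SE 0.10). None passed the test, and 2 had an unadjusted p under 0.05, MCM7 and MCM8 (-0.25, SE 0.09, limma adjusted p = 0.285).

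The direct comparison of the targets, H2AZ2 minus H2AZ1 hairpins, put the same 7 genes lower. It shares the H2AZ2 arrays with the comparison to control and is no separate evidence. MCM10 (-0.73, SE 0.11, limma adjusted p = 0.00375), MCM6 (-0.70, SE 0.12, limma adjusted p = 0.00586) and MCM4 (-0.65, SE 0.09, limma adjusted p = 0.00375) led, and MCM8 (-0.37, SE 0.10) missed the threshold (limma adjusted p = 0.0542). All 8 genes had H2AZ2 arrays wholly below the 4 H2AZ1 arrays, where 6.84% of all genes did and 2.28% were called lower. The call of MCM7 was lost without scrambled replicate 1, either sh_37 array, sh_38 replicate 1 or either array labelled sh_84 (limma adjusted p from 0.0542 to 0.0931). Without both arrays labelled sh_84 only MCM10 passed (-0.63, just under the threshold). Against sh_83 alone, in the fit by hairpin, sh_37 was lower for 7 genes (3.23% of all genes called lower, 28.8% wholly below), with MCM7 missing (-0.31, SE 0.10, limma adjusted p = 0.107). On the same measure sh_38 was lower for 2 genes (1.41% and 19.4%), MCM10 (-0.66, SE 0.12, limma adjusted p = 0.0194) and MCM4 (-0.47, SE 0.10, limma adjusted p = 0.0371). Its other 6 differences ran from -0.49 (MCM6, limma adjusted p = 0.0886) to -0.12 (MCM8, limma adjusted p = 0.694).

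The ring holds its subunits in equal number, so the evenness of their transcripts was described. With H2AZ2 hairpins the 6 changes had a median of -0.51 and an SD of 0.13. The median SE of a single change was 0.09, but that SE does not measure the spread between subunits. With H2AZ1 hairpins the median SE was the same and the SD was 0.03, for changes averaged over sh_83 and the arrays labelled sh_84. By single hairpin the SD was 0.16 with sh_37 and 0.11 with sh_38. It was 0.07 with sh_83, 0.05 in the arrays labelled sh_84 and 0.07 between the control hairpins. With H2AZ2 hairpins the ring genes fell in the order MCM6, MCM4, MCM2, MCM5, MCM7 and MCM3, with 0.34 between the ends. For sh_37 the median was -0.62 and the ends lay 0.39 apart, and for sh_38 the median was -0.41 and the ends lay 0.28 apart. MCM6 was lowest and MCM3 highest with both hairpins, which share their control arrays. The same 2 genes were the ends with sh_83 (-0.16 and 0.01). Against a single control hairpin MCM6 stayed lowest for sh_37 and sh_38, but the highest gene varied. It was MCM7 for sh_37 against luciferase (-0.34) and MCM2 for sh_38 against scrambled (-0.43). The 6 changes lay 0.17 apart with sh_83, 0.15 apart in the arrays labelled sh_84, and 0.22 apart between the control hairpins.

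Array by array, the mean of the 6 subunits relative to the controls was -0.62 and -0.60 with sh_37 and -0.42 and -0.49 with sh_38. In single control arrays it lay between -0.12 (luciferase replicate 1) and 0.05 (scrambled replicate 1). With sh_83 it was -0.13 and -0.03, and in the arrays labelled sh_84 0.05 and 0.12. All 6 subunits lay below the control mean in each of the 4 H2AZ2 arrays and in replicate 1 of sh_83. Luciferase replicate 1 had 5 of 6 below it, so it was the low control. The spread between the highest and lowest subunit within an array was 0.35 and 0.44 with sh_37 and 0.16 and 0.41 with sh_38, against 0.11 to 0.27 in the controls.

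**Figure D3:**
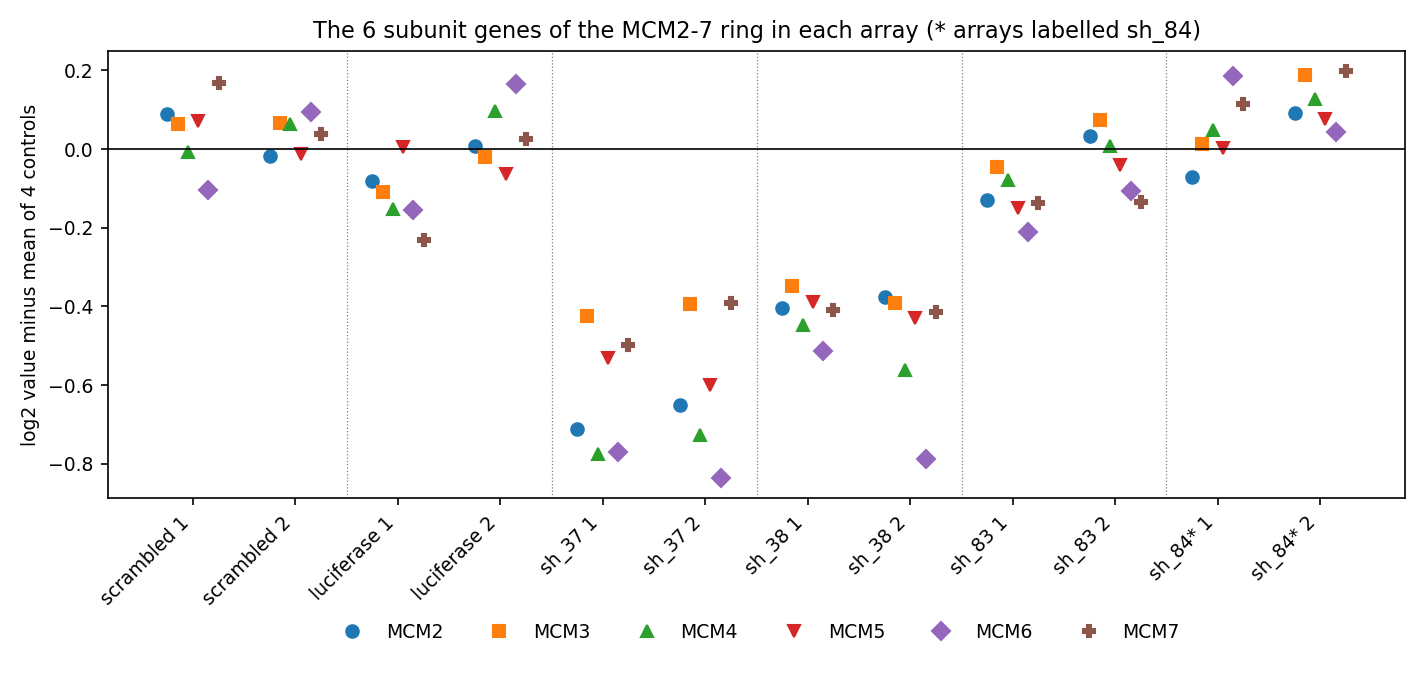
Log2 value of each of the 6 ring subunits minus its mean over the 4 control arrays (vertical axis) in each of the 12 arrays (horizontal axis), with 1 symbol per gene. In the 4 H2AZ2 arrays all 6 symbols lie below 0, MCM6 or MCM4 lowest, and in the control arrays they lie within 0.24 of 0.

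Whether 2 subunits changed by different amounts was tested for all 15 pairs, from the log2 ratio of both genes within each array, with an exact two-sided permutation test of 4 arrays against 4 whose smallest p is 0.0286. None of the 15 pairs passed after adjustment over the pairs, and 1 had an unadjusted p under 0.05. This was MCM3 with MCM4, whose ratio rose from 0.15 ± 0.08 (SD, n = 4) in the controls to 0.38 ± 0.12 with H2AZ2 hairpins, a difference of 0.24 (exact permutation p = 0.0286, adjusted p = 0.257). Its arrays did not overlap. The widest pair was MCM3 with MCM6, which differed by 0.34 (exact permutation p = 0.0571, adjusted p = 0.257), by 0.39 with sh_37 and 0.28 with sh_38. MCM3 and MCM7 moved within 0.04 of each other. At least 9 of the 15 pairs would have to reach the smallest p for any to pass, and a single subunit that changed apart from the rest, which enters 5 pairs, could at best give an adjusted p of 0.0857. The adjusted test therefore says little about equal or unequal change within the ring, and the permutations took no account of hairpins.

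The ring genes varied together over the arrays. Pearson's r of each gene with the mean of the other 5 ring genes over 12 arrays was highest for MCM4 (0.988) and lowest for MCM7 (0.920). For MCM10 and MCM8 with the mean of all 6 it was 0.962 and 0.921. These 12 points share hairpins and the gap between H2AZ2 arrays and the rest. After each hairpin's mean was removed, r was still 0.899 for MCM4 and 0.798 for MCM10, but 0.295 for MCM6 and 0.0482 for MCM5. Outside the set, the genes most like the mean of MCM2 to MCM7 were CDC45 (r = 0.991), EXO1 (0.988), NCAPG (0.987), CENPP (0.987), DEK (0.986) and NCAPH (0.985). CDC45 joins the ring in the active helicase, EXO1 is a DNA exonuclease, NCAPG and NCAPH belong to condensin, CENPP to the centromere, and DEK is a chromatin protein. Their differences with H2AZ2 hairpins ran from -0.70 (EXO1) to -0.42 (DEK). These genes were picked by r over arrays that hold the gap of the H2AZ2 arrays, so their falls follow from the choice. Without either replicate of sh_38, 3 of these 6 remained among the first 6.

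The genes that load the ring fell in part with H2AZ2 hairpins. Of 15 loading genes 7 were called lower and none higher, with a median of -0.45. The lowest of those called were ORC1 (-0.78, SE 0.12, limma adjusted p = 0.00565), the largest subunit of the origin recognition complex, CDC6 (-0.78, SE 0.19, limma adjusted p = 0.0433), which recruits the ring with it, and GMNN (-0.63, SE 0.10, limma adjusted p = 0.00546), the gene of geminin, an inhibitor of loading. Unlike the ring, where 6 of 6 subunits were called, the origin recognition complex had 2 of 6 called, and its subunits ran from -0.78 (ORC1) to -0.04 (ORC3, SE 0.09), a span of 0.73 against 0.34 for the ring. The GINS genes were closer to the ring, with 4 of 4 called and a span of 0.28. ORC3 and the other complexes' end members were named after their values were seen, and the differences in span were not tested. Without scrambled replicate 1 the loading count was 1.

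Genes that turn the loaded ring into a working helicase, and its partners at the fork, fell in part too. Of 22 measured, 12 were called lower and none higher, with a median of -0.45 and all 22 differences below 0. POLE2 (-0.93, SE 0.13, limma adjusted p = 0.00482) encodes a subunit of the leading strand polymerase. CLSPN (-0.73, SE 0.13, limma adjusted p = 0.0113) and TIPIN (-0.65, SE 0.11, limma adjusted p = 0.00957) encode fork protection factors. All 4 GINS genes, which complete the active helicase with CDC45, were called, from -0.64 (GINS1) to -0.37 (GINS3). With sh_37 alone 19 of the 22 were called, and with sh_38 alone 11. Without scrambled replicate 1 the count over both hairpins was 3, and without luciferase replicate 2 it was 8. With sh_83 none of the 15 loading and none of the 22 activation genes was called by limma, and 3 of each list had an unadjusted p under 0.05. In the loading list these were CDC6 (-0.56), CDK2 (-0.47) and CCNE2 (-0.33). Those of the activation list were MTBP (-0.70), GINS1 (-0.42, limma adjusted p = 0.0568) and DBF4B (-0.27). All but DBF4B had sh_83 arrays wholly below the controls, as 10.9% of all genes did. In H2AZ2 minus H2AZ1, GINS1 was called (limma adjusted p = 0.0435) and CDC6 was not (0.102).

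Of the 4 genes related to MCM8 by function or sequence, 1 passed the test. HROB, which loads the MCM8 and MCM9 helicase, was called lower (-0.42, SE 0.09, limma adjusted p = 0.0208), a call lost without scrambled replicate 1, without luciferase replicate 2 or without sh_37 replicate 2. MCM9 (-0.32, SE 0.10, limma adjusted p = 0.117) and SPIDR (-0.28, SE 0.09, limma adjusted p = 0.105), a scaffold of recombination, did not pass. MCMDC2, an MCM-like gene of meiosis, differed by 0.04. With sh_37 alone HROB (-0.50), MCM9 (-0.41) and SPIDR (-0.39) were all called, as MCM8 was, and with sh_38 alone none of them was. None was called with sh_83 either, but MCM9 (-0.27), HROB (-0.18) and SPIDR (-0.10) had sh_83 arrays wholly below the controls, as 10.9% of all genes did.

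The genes MCM4, MCM7 and MCM8 each share a promoter region with a gene on the opposite strand. The neighbour of MCM7, AP4M1, differed by -0.23 (SE 0.07, limma adjusted p = 0.118) with H2AZ2 hairpins, against -0.43 for MCM7. PRKDC, the neighbour of MCM4, differed by -0.18 (SE 0.09, limma adjusted p = 0.354), against -0.63 for MCM4. TRMT6, the neighbour of MCM8, differed by -0.02 (SE 0.08). None of the 3 neighbours was called by limma, and 1 had an unadjusted p under 0.05.

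An intron of MCM7 holds the hairpins of miR-106b, miR-93 and miR-25 on the same strand. Their main mature arms are shown because their host transcript fell, with the seed, bases 2 to 8, in capitals (RefSeq, GRCh38.p14).
hsa-miR-106b-5p, chr7:100094043-100094063: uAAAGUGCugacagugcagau
hsa-miR-93-5p, chr7:100093815-100093837: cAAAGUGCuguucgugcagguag
hsa-miR-25-3p, chr7:100093571-100093592: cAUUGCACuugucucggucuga
The arms of miR-106b and miR-93 share their seed, and that of miR-25 differs. Probe sets for the hairpin loci, looked up after the values of MCM7 were seen, gave 0.07 for MIR106B (SE 0.11, limma adjusted p = 0.770), 0.02 for MIR25 (SE 0.12, limma adjusted p = 0.948) and -0.07 for MIR93 (SE 0.10, limma adjusted p = 0.719). Their groups overlapped, where those of MCM7 did not. Total RNA on this array does not measure mature miRNAs.

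General markers of dividing cells moved beside the MCM genes in part. Of 12 proliferation markers 6 were called lower with H2AZ2 hairpins, and all 12 differences were below 0, with a median of -0.41. CDK1, the kinase of mitotic entry, stood at -0.72 (SE 0.12, limma adjusted p = 0.00722), RRM2, which makes nucleotides for DNA synthesis, at -0.54 (SE 0.10, limma adjusted p = 0.0133), and TOP2A, a topoisomerase, at -0.54 (SE 0.10, limma adjusted p = 0.0118). The mean log2 level of this list ran from 10.81 to 10.95 in the controls, 10.33 to 10.65 in the H2AZ2 arrays and 10.78 to 10.99 in the H2AZ1 arrays. Its part in the fall of the MCM genes was not tested. Without scrambled replicate 1 its count was 1, without luciferase replicate 2 or either sh_37 array it was 3. With sh_38 alone only TOP2A (-0.62), CDK1 (-0.62) and RRM2 (-0.42) were called, and BIRC5 (-0.01), AURKA (-0.10) and PLK1 (-0.12) differed least. BIRC5 (-0.53), BUB1 (-0.46) and TYMS (-0.45) were called lower with sh_37 than with sh_38, where no MCM gene was. These markers were named by hairpin after their values were seen. Of 10 housekeeping genes 2 were called lower, GUSB (-0.52, SE 0.09, limma adjusted p = 0.0105) and HPRT1 (-0.44, SE 0.11, limma adjusted p = 0.0371), and the median was -0.05.

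**Figure D4:**
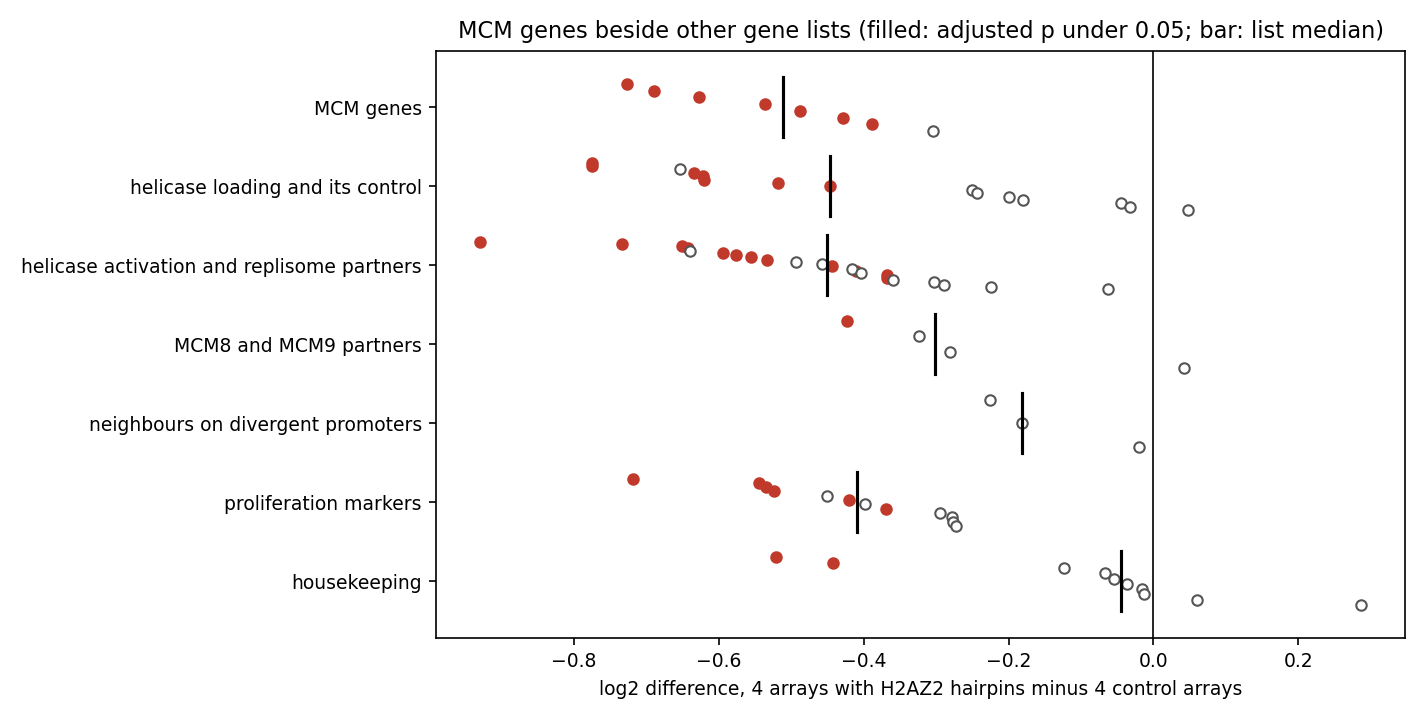
Log2 difference between 4 arrays with H2AZ2 hairpins and 4 control arrays (horizontal axis) for each gene of 7 lists (vertical axis), filled where the adjusted p is under 0.05, with a bar at the list median. The MCM genes centre on -0.51, the loading, activation and proliferation lists on -0.45, -0.45 and -0.41, and the housekeeping genes on -0.05.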

How the data were processed

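Gene expression was measured on 12 Affymetrix Human Gene 1.0 ST arrays. The deposited table holds 1 log2 value per probe set and array. Per the submitters' processing notes the authors used RMA. Its version and settings are not given in the sources used. Array medians ran from 7.00 to 7.10, and no further normalization was applied. Signal over background is unknown, and the number of arrays limits the precision. Of 33297 probe sets, 19460 had 1 gene symbol, 1754 several, and 12083 were not listed with a symbol. Symbols were updated by Entrez ID for 19429, and the brightest probe set was kept for the 769 genes with several, which gave 18417 genes. Each MCM gene had 1.

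All fits used limma 3.58.1 in R 4.3.3 with moderated statistics and Benjamini-Hochberg adjustment over all genes, at a threshold of 0.05. Targets were compared with hairpins as random blocks (duplicateCorrelation, consensus 0.157). Single hairpins were compared as 6 groups, without the spread between hairpins of a target. Both fits were run on simulated data with normal noise and the hairpin correlation of the target fit. That run checks the code and does not show how often calls in these arrays are false. Figures were drawn with matplotlib 3.10.9.

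The members and gene lists were chosen with earlier results of these data known. Named genes are the members, the targets, up to 3 called genes with the largest change of each list (or the 2 largest where none was called), all partners of MCM8 and MCM9 and all promoter neighbours, and the 6 genes most like the ring. List genes without a probe set of their own symbol alone were left out of the counts, and some genes are not reported here. Alternatives covered the mean of all probe sets, leaving out the dimmest 25%, median centring, a new quantile normalization, an intensity trend in the variance prior, both blocks, single control hairpins, and each array and hairpin left out.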

Additional observations from a re-analysis of the deposited data

Results flagged for a closer look

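Within the 4 H2AZ2 arrays, H2AZ1 read 11.97 in replicate 1 of sh_37, apart from the others at 12.09 to 12.11. It was the only one of 30 groups of 4 arrays (8 MCM genes and the 2 targets in 3 groups) with a sample so far from the rest, and chance alone marks about 1 in 20 such groups. The level of H2AZ2 differed between its hairpins by -0.50, sh_37 below sh_38 (limma adjusted p = 0.00763), with sh_37 lower in 2 of 2 arrays. H2AZ1 differed between its hairpins by -2.25, sh_83 below the arrays labelled sh_84 (limma adjusted p = 1.02e-05), again in 2 of 2 arrays. No MCM gene differed between hairpins of the same target after adjustment.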

How the results depend on the processing

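With only 2 arrays per hairpin and signal over background unknown, calls near the threshold are the least certain. The 25 alternatives for H2AZ2 minus control kept all 8 MCM differences below 0. The count of 7 became 0 without the scrambled hairpin and 0 without luciferase, where fewer arrays were fitted, and leaving out arrays gave 3 to 7. MCM7 was also lost after a new quantile normalization (limma adjusted p = 0.0544), without sh_38 (0.0513) and, with MCM3 (0.0596), without sh_37 (0.129), and so in 12 of the 25 alternatives in all. The ring median moved to -0.41 without sh_37 and -0.62 without sh_38 (-0.54 to -0.48 over single arrays), while its range stayed within 0.27 to 0.41. H2AZ2 minus H2AZ1 fell to a count of 1 without sh_84. Leaving out arrays gave counts of 5 to 8 for sh_37 and 0 to 7 for sh_38, which gave 4 against luciferase alone. Between 3 and 6 of the 6 genes most like the ring were shared, and this alternative and the list counts without single arrays were added after seeing the data. Counts of 0 for sh_83, the arrays labelled sh_84, H2AZ1, sh_37 minus sh_38 and the control hairpins stayed 0 in every setting run. The 15 pairs gave 0 too, which says nothing about stability, since 9 pairs at the smallest p were needed for any call. The pair test without a hairpin was not run, as 2 arrays against 4 cannot pass.

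Replicate numbers did not pair the arrays alike in all hairpins (r of replicate deviations from -0.47 to 0.68, over 0.1 in 9 of 15 hairpin pairs). Among scrambled, sh_37, sh_38 and sh_84 r ran from 0.38 to 0.68, so these hairpins shared a replicate difference. Luciferase ran against them (-0.47 to -0.13), and sh_83 shared little with any hairpin (-0.01 to 0.18). The source of this pattern was not tested. With the replicate block the H2AZ2 count was 6, MCM7 being lost (limma adjusted p = 0.0573), over all genes 445 instead of 609 were called, and no other count of MCM genes changed.

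Signs turned only for differences near 0 that were never called. For H2AZ1 minus control, MCM2 became 0.00624 and MCM6 0.00321 with arrays centred, MCM6 0.0097 after a new quantile normalization, MCM2 0.0172 and MCM5 0.00193 without the scrambled hairpin, MCM3 -0.00686, MCM4 -0.00171, MCM7 -0.093 and MCM10 -0.0273 without luciferase. There, MCM2 became 0.0106, MCM5 0.0404 and MCM6 0.115 without sh_83, and MCM4 -0.0356, MCM7 -0.136, MCM8 -0.0562 and MCM10 -0.0641 without sh_84. Single arrays left out gave ranges of -0.0565 to 0.0188 for MCM2, -0.0277 to 0.0632 for MCM4, -0.0591 to 0.0116 for MCM5, -0.0854 to 0.0373 for MCM6, -0.064 to 0.0566 for MCM7 and -0.0124 to 0.114 for MCM10. For sh_83, MCM3 became -0.0495 against scrambled, and MCM8 0.00568 and MCM10 0.0074 against luciferase, with single-array ranges of -0.131 to 0.0338 (MCM2), -0.0446 to 0.0745 (MCM3), -0.0977 to 0.0264 (MCM4) and -0.173 to 0.0446 (MCM10). MCM2 in the arrays labelled sh_84 became -0.0256 against scrambled (-0.0704 to 0.0915 over arrays). For scrambled minus luciferase, MCM6 became 0.0080 with centring and 0.0418 after quantile normalization, with ranges of -0.169 to 0.151 (MCM6) and -0.0691 to 0.179 (MCM4). For sh_37 minus sh_38 the ranges were -0.0864 to 0.0212 (MCM7) and -0.00567 to 0.14 (MCM10). The cause was not tested.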
